A study of Mus musculus with 12 samples.

Results

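Myosins are motor proteins that turn ATP hydrolysis into force on actin filaments. The genes described here are 9 non-muscle myosin heavy chains of thymic *i*NKT cells, namely *Myo1c*, *Myo1e*, *Myo1f*, *Myo1g*, *Myo5a*, *Myo6*, *Myo9b*, *Myo18a* and *Myh9*, out of 48709 genes in the count table. They were listed by symbol after earlier results of the same libraries were known, and were chosen by the measured genotype differences, since those of *Myo1f* and *Myo6* differed between the pools. Levels between genotypes are therefore given below as a description, without a test. The comparison between NK1.1 pools, averaged over the genotypes, did not enter the choice and was tested.

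RNA was sequenced from sorted thymic *i*NKT cells of C57BL/6J mice listed as 7 weeks old, in 12 libraries, 3 from each of 4 groups: miR-155KI NK1.1+, WT NK1.1+, miR-155KI NK1.1- and WT NK1.1- cells. The miR-155KI mice had 2 copies of a Rosa26 miR-155 knock-in allele and the CD4Cre transgene, which is active in the whole T cell lineage and not in *i*NKT cells alone. The WT mice were littermates that carried the knock-in allele without CD4Cre, so all 4 groups share the allele and differ by Cre. No treatment was given. Thymocytes were depleted of CD8+ cells and then sorted by CD1d tetramer, TCRβ, CD44 and NK1.1. *i*NKT cells are T cells with an invariant receptor for lipids on CD1d, and NK1.1, encoded by *Klrb1c*, marks the mature thymic pool, in which *i*NKT1 cells prevail, and the NK1.1- pool holds immature, *i*NKT2 and *i*NKT17 cells. No source ties a library to single mice. A p-value here therefore sets a difference between groups against the scatter of libraries within them, and some of that scatter may be technical.

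Class I myosins, such as *Myo1c*, *Myo1e*, *Myo1f* and *Myo1g*, have a single motor head and a tail that binds membrane, and they couple membranes to the actin cortex. *Myo5a* carries organelles along actin, *Myo6* is the myosin that moves towards the minus end of the filament, and *Myo9b* combines a motor with a signalling domain in its tail. *Myo18a* is an unconventional myosin that ties Golgi membranes to actin, and *Myh9* encodes the heavy chain of non-muscle myosin IIA, which contracts the rear of migrating lymphocytes.

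The mature miRNA that the knock-in overexpresses is shown first because its seed defines the sequence searched for in the myosin transcripts. Capitals mark the seed, bases 2 to 8, and the sequence is from RefSeq (GRCm38.p6, chr16:84714143-84714165, plus strand).
mmu-miR-155-5p: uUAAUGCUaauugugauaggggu
Annotated 3′ UTRs (GENCODE M21, GRCm38) were searched for AGCATTAA, the 8-base match, which 672 of 21013 genes with a 3′ UTR hold (3.20%). *Myo1c* was the only one of the 9 myosins that held it, at chr11:75673281-75673288 on the plus strand, with the match in capitals.
*Myo1c* 3′ UTR site: gctcaatccccAGCATTAAaaaataaaaaa
The other 8 genes held neither the 8 letters, nor AGCATTA, nor GCATTAA, nor the 6-base GCATTA, which is in the 3′ UTR of 20.5% of genes. Their 3′ UTRs differ widely in length, and the longest annotated one has 387 bases for *Myo1f* and 3858 bases for *Myo6*. A match is a description of the letters, not a measured site.

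The promoters of *Myo1f* and *Myo6* are shown because these genes carry the patterns described below. Each window runs from 250 bases before to 50 bases after the start in RefSeq (GRCm38.p6), and all 9 genes had at least 1 such window. The windows were searched on both strands for a RUNX motif (TGTGGT), an ETS motif (CGGAAG) and a T-box motif (AGGTGT), of transcription factor families used by T cells. These motifs were picked after the files had been seen, and none of the 3 overlaps another. Capitals mark a match.
*Myo1f* promoter, chr17:33555457-33555756, plus strand: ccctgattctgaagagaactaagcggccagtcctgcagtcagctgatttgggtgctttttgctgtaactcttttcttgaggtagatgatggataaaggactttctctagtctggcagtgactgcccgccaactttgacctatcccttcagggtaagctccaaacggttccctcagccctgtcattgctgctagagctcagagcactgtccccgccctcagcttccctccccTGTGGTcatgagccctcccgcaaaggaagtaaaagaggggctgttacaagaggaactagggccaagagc
*Myo6* promoter, chr9:80164784-80165083, plus strand: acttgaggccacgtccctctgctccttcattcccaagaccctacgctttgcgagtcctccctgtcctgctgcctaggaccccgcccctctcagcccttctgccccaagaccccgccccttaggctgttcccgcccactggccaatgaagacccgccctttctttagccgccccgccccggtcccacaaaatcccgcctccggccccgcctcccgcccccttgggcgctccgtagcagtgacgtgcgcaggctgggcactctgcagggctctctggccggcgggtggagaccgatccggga
The *Myo1f* window held 1 RUNX match, beginning 19 bases before the start, and 16.8% of 32851 promoter windows hold that motif. The *Myo6* window held none of the 3 motifs and was richer in G and C, at 68.3%, against 53.0% for *Myo1f* and a median of 52.7% over all windows. ETS matches lay in windows of *Myo1c* and *Myo9b* and T-box matches in windows of *Myo18a* and *Myo9b*, which 16.9% and 13.7% of all windows hold.

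On the genome *Myo1e*, *Myo5a* and *Myo6* lie on chromosome 9, *Myo1c*, *Myo1g* and *Myo18a* on chromosome 11, *Myo9b* on chromosome 8, *Myh9* on chromosome 15 and *Myo1f* on chromosome 17 (chr17:33555707-33607764, plus strand, GRCm38). *Myo6* spans chr9:80165031-80311729 on the plus strand. The exons of *Myo9b* share 116 bases, 1.55% of their length, with *Haus8* on the opposite strand, and no other member shares exon bases with another gene. The library kit named in the labels does not keep strand, so reads from those bases cannot be assigned to one of the pair.

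The total count per library was 14302160 to 18334380 in miR-155KI NK1.1+, 17857880 to 20518257 in WT NK1.1+, 12819476 to 18347011 in miR-155KI NK1.1- and 13967322 to 18338866 in WT NK1.1- cells. *Mir155hg*, the host gene of miR-155, lay at 95.2 to 127.9 CPM in miR-155KI and 11.2 to 12.1 CPM in WT NK1.1+ cells, and at 131.6 to 143.9 CPM in miR-155KI and 9.65 to 13.7 CPM in WT NK1.1- cells. *Klrb1c* lay at 358 to 774 CPM in NK1.1+ and 36.7 to 79.9 CPM in NK1.1- libraries. The 6 markers listed for *i*NKT identity, *Cd3e*, *Cd3g*, *Trbc1*, *Trbc2*, *Zbtb16* and *Cd4*, summed to 3866 CPM or more in every library. All but *Zbtb16*, the PLZF gene, are shared with other T cells, so the sum does not tell *i*NKT cells from them. *Zbtb16* lay at 216 to 301 CPM in NK1.1+ and 427 to 639 CPM in NK1.1- libraries. Y-linked genes were high and *Xist* low in all miR-155KI libraries and in WT replicate 1 of both pools, and the reverse held in WT replicates 2 and 3. Myeloid markers, 13 of 14 listed genes being in the table, summed to 347 to 1018 CPM in miR-155KI NK1.1+ against 136 to 163 CPM in WT NK1.1+ libraries, with 148 to 198 CPM in miR-155KI NK1.1- and 130 to 267 CPM in WT NK1.1- libraries. Markers of CD4+CD8+ thymocytes summed to 211 CPM in miR-155KI NK1.1+ replicate 1 and to 45.2 CPM or less elsewhere, and B cell markers summed to 894 CPM in WT NK1.1- replicate 1 and to 91.0 to 327 CPM elsewhere. No listed marker of these 3 cell types was at 0 in all libraries of a group.

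Levels of single genes are given as TMM-normalized CPM (counts scaled to library size by the trimmed mean of M-values), in the order of replicates 1, 2 and 3. All 9 genes passed the filter on low counts in every comparison. *Myo5a* was counted least, with 21 to 261 counts per library, and every other member had at least 212.

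Among the class I myosins, *Myo1f*, which in mice is known from leukocyte adhesion and migration, had the widest range. It lay at 404, 529 and 500.3 CPM in miR-155KI NK1.1+ cells, at 481, 441 and 431 CPM in WT NK1.1+ cells, at 41.7, 60.2 and 52.0 CPM in miR-155KI NK1.1- cells and at 97.5, 130.7 and 100.7 CPM in WT NK1.1- cells. All NK1.1+ libraries were above all NK1.1- libraries, and within the NK1.1- pool the miR-155KI libraries were all below the WT libraries.

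*Myo1e*, known from endocytosis and from the filtration barrier of the kidney, ran the other way. It lay at 34.8, 34.9 and 36.3 CPM in miR-155KI NK1.1+ cells, at 38.4, 30.2 and 31.5 CPM in WT NK1.1+ cells, at 106, 88.1 and 81.0 CPM in miR-155KI NK1.1- cells and at 66.9, 67.7 and 62.9 CPM in WT NK1.1- cells. The NK1.1- libraries were all above the NK1.1+ libraries, and the miR-155KI NK1.1- libraries were the highest.

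*Myo1g*, a class I myosin of blood cells that in mouse T cells acts on membrane tension and motility, varied little. It lay at 365, 379 and 365 CPM in miR-155KI NK1.1+ cells, at 295, 326 and 328 CPM in WT NK1.1+ cells, at 312, 292 and 263 CPM in miR-155KI NK1.1- cells and at 253, 281 and 302 CPM in WT NK1.1- cells. The miR-155KI NK1.1+ libraries stood above all others, and the other 3 groups overlapped.

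*Myo1c*, which takes part in the delivery of glucose transporters to the plasma membrane, was low. It lay at 24.2, 25.0 and 13.6 CPM in miR-155KI NK1.1+ cells, at 22.5, 18.2 and 21.7 CPM in WT NK1.1+ cells, at 16.5, 15.9 and 15.3 CPM in miR-155KI NK1.1- cells and at 18.4, 19.1 and 16.1 CPM in WT NK1.1- cells. The miR-155KI NK1.1+ group held both the highest and the lowest library, and all 4 groups overlapped at least one other.

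Of the transport myosins, *Myo6*, which works in endocytosis and in the handling of autophagosomes, gave a pattern of its own. It lay at 33.0, 36.9 and 30.1 CPM in miR-155KI NK1.1+ cells, at 58.7, 55.4 and 43.5 CPM in WT NK1.1+ cells, at 90.5, 72.2 and 77.6 CPM in miR-155KI NK1.1- cells and at 47.9, 58.3 and 48.3 CPM in WT NK1.1- cells. The WT pools overlapped, all miR-155KI NK1.1+ libraries lay below them and all miR-155KI NK1.1- libraries above them.

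*Myo5a*, known from the transport of melanosomes, was the lowest. It lay at 7.49, 8.60 and 1.32 CPM in miR-155KI NK1.1+ cells, at 2.94, 5.08 and 3.90 CPM in WT NK1.1+ cells, at 8.45, 7.52 and 14.0 CPM in miR-155KI NK1.1- cells and at 10.7, 7.21 and 7.64 CPM in WT NK1.1- cells. The miR-155KI NK1.1+ libraries overlapped each of the other groups, and the WT pools did not overlap each other.

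*Myo9b*, the myosin with a signalling tail, lay at 81.5, 89.0 and 116.9 CPM in miR-155KI NK1.1+ cells, at 91.4, 108.8 and 121 CPM in WT NK1.1+ cells, at 69.2, 67.8 and 54.1 CPM in miR-155KI NK1.1- cells and at 63.1, 65.1 and 69.5 CPM in WT NK1.1- cells. The pools did not overlap and the genotypes did in both pools.

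*Myo18a*, the Golgi-linked myosin, lay at 65.5, 57.9 and 56.5 CPM in miR-155KI NK1.1+ cells, at 69.5, 81.0 and 90.0 CPM in WT NK1.1+ cells, at 88.8, 82.8 and 74.1 CPM in miR-155KI NK1.1- cells and at 71.6, 66.6 and 79.1 CPM in WT NK1.1- cells. The miR-155KI NK1.1+ libraries were the lowest of all, and the other groups overlapped.

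*Myh9* lay at 313, 357 and 334 CPM in miR-155KI NK1.1+ cells, at 347, 400.1 and 486 CPM in WT NK1.1+ cells, at 445, 353 and 353 CPM in miR-155KI NK1.1- cells and at 329, 333 and 385 CPM in WT NK1.1- cells. The groups overlapped in both pools and both genotypes.

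**Figure D1:**
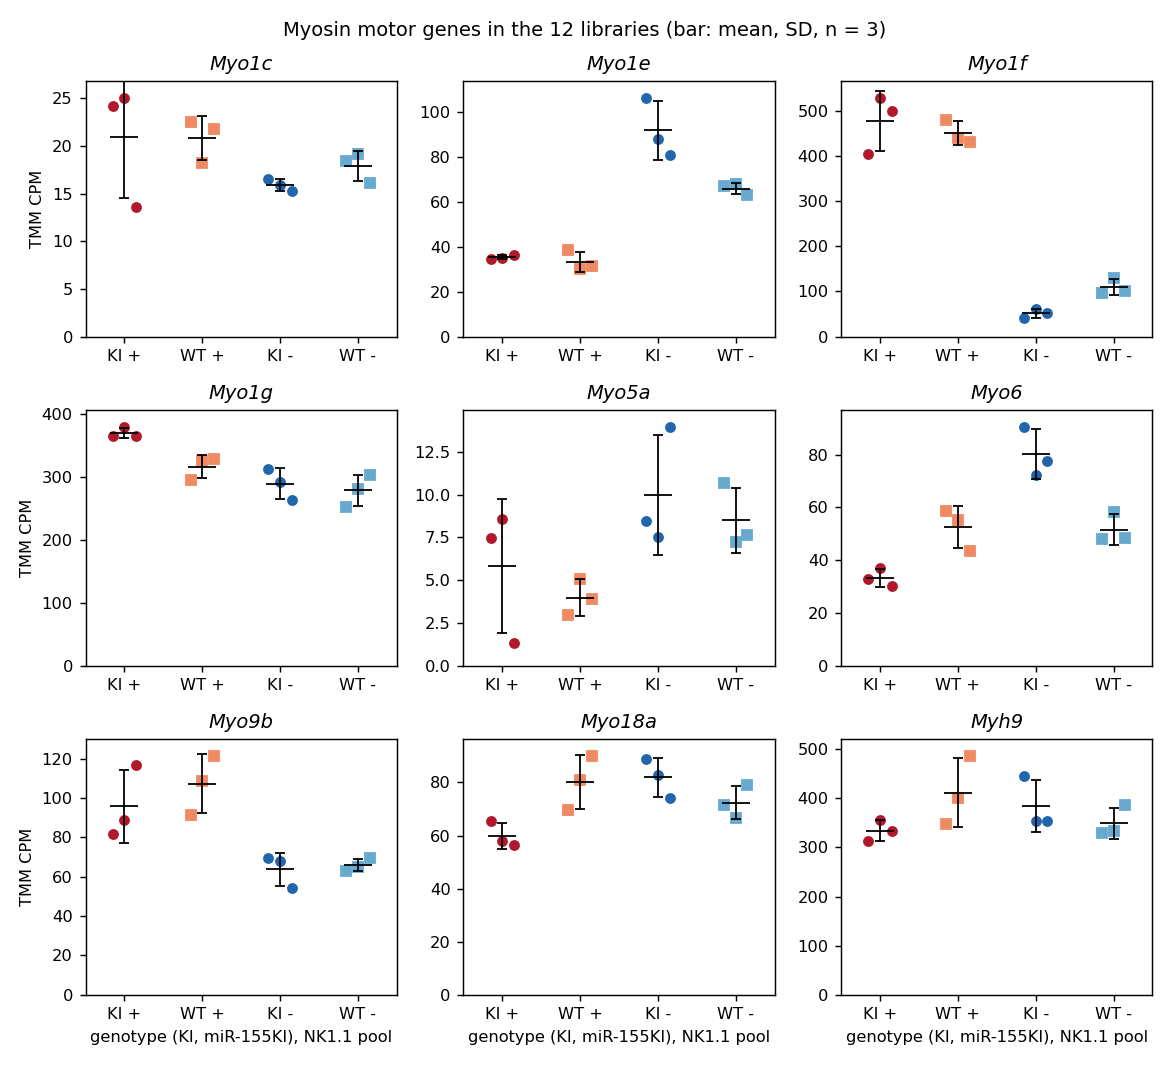
Level of each of the 9 myosin genes in TMM CPM (vertical axis, from 0, its range set per gene) in miR-155KI NK1.1+ (KI +), WT NK1.1+ (WT +), miR-155KI NK1.1- (KI -) and WT NK1.1- (WT -) cells. Points are libraries and bars are the mean with SD of 3. *Myo1f* lies above 400 CPM in every NK1.1+ library and below 131 CPM in every NK1.1- library, and *Myo6* is lowest in miR-155KI NK1.1+ and highest in miR-155KI NK1.1- cells.

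To compare genes with each other, levels were divided by the length of their annotated exons. That length joins the exons of all annotated transcripts of a gene, 5 for *Myo1f*, 7 for *Myo1g* and 24 for *Myo18a*. The order of genes depends on this choice, and no other length was tried. On this scale of CPM per kb, *Myo1f* stood first in both NK1.1+ groups, at 96.2 ± 13.2 in miR-155KI and 90.7 ± 5.26 in WT cells, and *Myo1g* second, at 53.1 ± 1.21 and 45.4 ± 2.67 (SD, n = 3 each). In the NK1.1- pool *Myo1g* stood first, at 41.6 ± 3.58 in miR-155KI and 40.1 ± 3.56 in WT cells, *Myh9* second, at 29.7 ± 4.11 and 27.0 ± 2.44, and *Myo1f* took rank 4 in miR-155KI cells, at 10.3 ± 1.86, and rank 3 in WT cells, at 22.1 ± 3.68. *Myo5a* was last in all 4 groups, between 0.27 and 0.67 CPM per kb on average. The libraries of *Myo18a*, *Myo1c* and *Myo6* overlapped as neighbours in that order in miR-155KI NK1.1+ cells, as did those of *Myo1e*, *Myo18a* and *Myo6* in WT NK1.1+ cells. In miR-155KI NK1.1- cells *Myo1f*, *Myo9b* and *Myo6* were such neighbours, and in WT NK1.1- cells *Myh9* with *Myo1f* and *Myo18a* with *Myo6*. The libraries of all other neighbours in the order did not overlap, some by a gap narrower than their own range. The 9 genes summed to 204 ± 16.4 CPM per kb in miR-155KI NK1.1+ and 201 ± 4.48 in WT NK1.1+ cells, and to 121 ± 10.2 in miR-155KI NK1.1- and 122 ± 6.98 in WT NK1.1- cells (mean ± SD over 3 libraries). The sums of the genotypes overlapped in each pool.

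**Figure D2:**
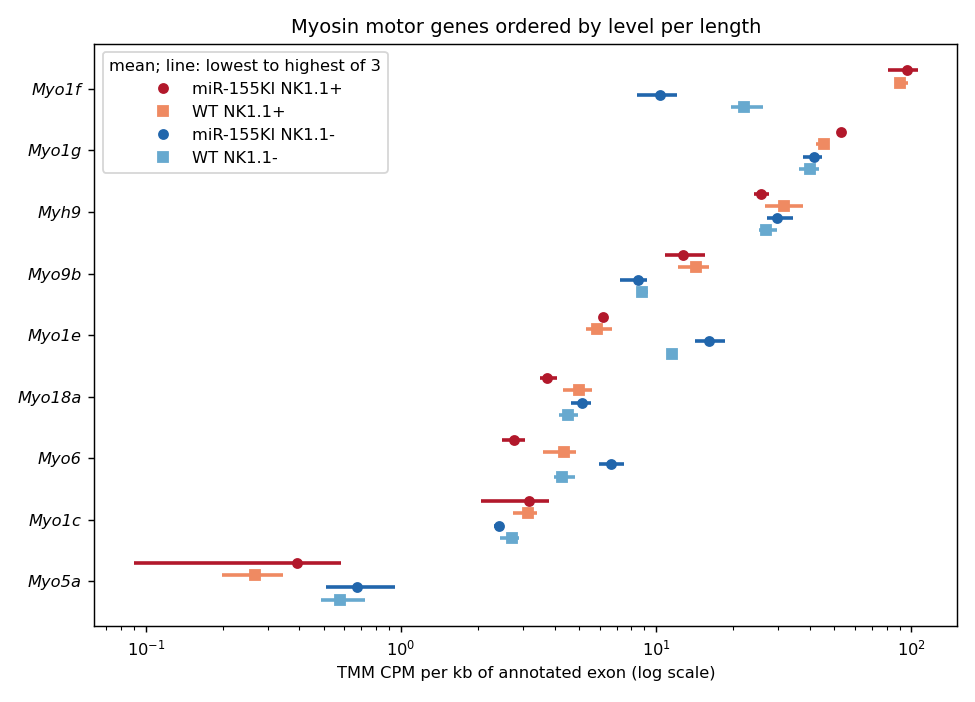
Level per length of the 9 myosin genes, in TMM CPM per kb of annotated exon (horizontal axis, log scale), ordered by their mean over groups. Symbols are means and lines run from the lowest to the highest of 3 libraries. *Myo1f* moves by far more than its neighbours between the pools, and *Myo5a* lies below 1 CPM per kb in every group.

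The pool comparison asked how the myosins differ between the mature NK1.1+ and the less mature NK1.1- *i*NKT cells. *Myo1f* rose in NK1.1+ cells, by 2.63 ± 0.11 on the log2 scale (SE), or 6.20-fold (adjusted p = 2.06e-10), and *Myo9b* rose by 0.65 ± 0.11, or 1.56-fold (adjusted p = 3.99e-04). *Myo1g* rose by 0.27 ± 0.08, or 1.20-fold (adjusted p = 0.0153). *Myo1e* fell in NK1.1+ cells by 1.18 ± 0.10, to 0.441 times the NK1.1- level (adjusted p = 3.60e-07), and *Myo6* fell by 0.62 ± 0.11, to 0.651 times (adjusted p = 5.65e-04). These p-values are from edgeR's quasi-likelihood test over all 12 libraries, adjusted by the Benjamini-Hochberg method over 14401 genes. It called 3 of the 9 genes higher and 2 lower, and 28.8% of all genes tested. The pools thus differed in a large share of all genes, and nothing particular to myosins is read from the count. The median absolute log2 difference was 0.62 over the 9 genes and 0.36 over all genes. In miR-155KI cells alone it was 0.59 against 0.37, and in WT cells alone 0.20 against 0.36. Medians within 1 genotype hold part of the contrast that chose *Myo1f* and *Myo6*, so nothing about the myosins is read from them. In 3 of the 9 genes, *Myo1f* and *Myo9b* upwards and *Myo1e* downwards, the 6 NK1.1+ libraries did not overlap the 6 NK1.1- libraries, a separation seen in 13.2% of all genes.

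Of the 4 genes that did not pass, *Myo5a* had a log2 difference of -0.94 with a 95% interval of -1.77 to -0.11 (adjusted p = 0.0624) and *Myo1c* 0.31, from -0.08 to 0.69 (adjusted p = 0.19). *Myo18a* had -0.15, from -0.38 to 0.08 (adjusted p = 0.28), and *Myh9* 0.02, from -0.21 to 0.24 (adjusted p = 0.913). The adjusted p of *Myo5a* under edgeR was 0.0473, 0.0277 and 0.0441 without miR-155KI NK1.1+ replicate 1, 2 and 3, and DESeq2 over all libraries gave 0.0276. It passed in 10 of 23 other settings, among them limma-voom and WT libraries alone (log2 -1.13). In miR-155KI libraries alone it did not pass, at -0.78 ± 0.61 (SE). The log2 difference of *Myo5a* was below 0 in all 23. *Myo1c* passed without miR-155KI NK1.1+ replicate 3 (log2 0.41, adjusted p = 0.0359), and *Myo1g* did not pass without miR-155KI NK1.1- replicate 3 (log2 0.22, adjusted p = 0.0788).

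The pool averages hide unequal parts. For *Myo6* the log2 difference of NK1.1+ over NK1.1- cells was -1.27 ± 0.16 in miR-155KI cells alone and -0.0040 ± 0.16 in WT cells alone (SE), so the averaged fall came from the miR-155KI libraries. For *Myo1f* it was 3.22 ± 0.17 in miR-155KI and 2.01 ± 0.15 in WT cells, and for *Myo1e* -1.38 ± 0.15 and -1.01 ± 0.14. *Myo9b* had 0.59 ± 0.17 in miR-155KI and 0.67 ± 0.14 in WT cells. *Myo18a* and *Myh9* had different signs in the genotypes, with -0.45 ± 0.14 and -0.20 ± 0.13 in miR-155KI cells against 0.12 ± 0.14 and 0.20 ± 0.14 in WT cells. The gap between the genotypes in these values is the quantity by which *Myo1f* and *Myo6* were chosen.

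**Figure D3:**
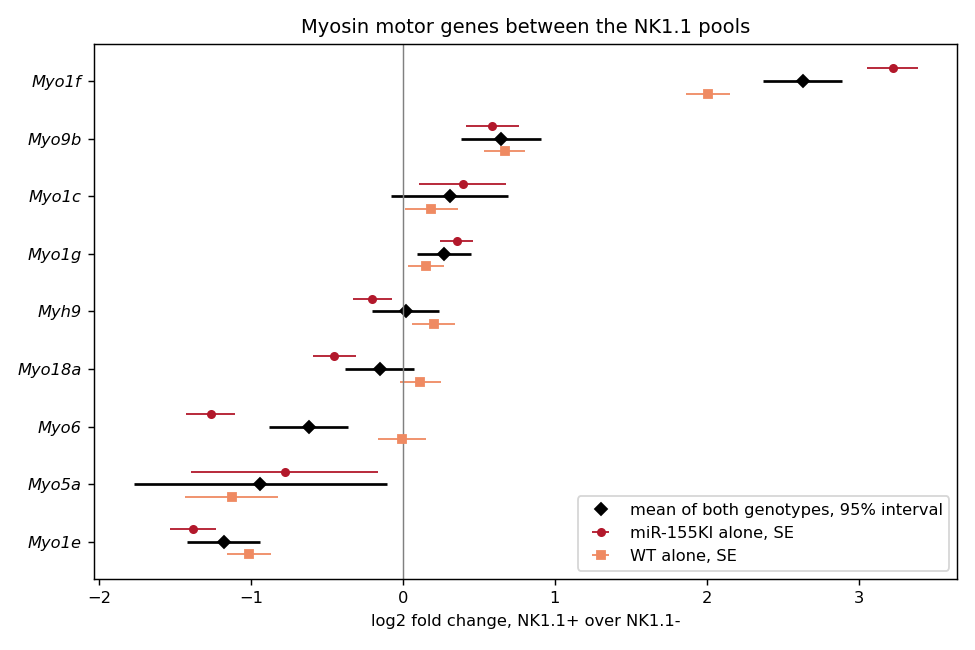
Log2 fold change of NK1.1+ over NK1.1- cells (horizontal axis) for the 9 myosin genes. Diamonds are the mean of both genotypes with its 95% interval over 12 libraries, circles miR-155KI and squares WT cells alone with SE. *Myo1f* lies at 2.63 and *Myo1e* at -1.18, and *Myo6* is near 0 in WT cells alone.

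Within the pools, the genotype values describe the choice of the genes. In NK1.1- cells, miR-155KI over WT gave a log2 difference of -1.12 ± 0.16 for *Myo1f* (SE), or 0.460 times the WT level, 0.62 ± 0.13 for *Myo6*, or 1.53-fold, and 0.46 ± 0.13 for *Myo1e*, or 1.38-fold. The other 6 genes lay between -0.18 and 0.22. In *Myo6* and *Myo1e*, higher, and *Myo1f*, lower, the miR-155KI libraries did not overlap the WT libraries, a separation found in 23.1% of the genes in that comparison. In NK1.1+ cells *Myo6* had -0.67 ± 0.19, or 0.629 times the WT level, *Myo18a* -0.44 ± 0.17, *Myh9* -0.31 ± 0.15, *Myo1g* 0.21 ± 0.12 and *Myo1f* 0.07 ± 0.14. *Myo5a* had 0.53 ± 0.66, an error larger than the value. In *Myo1g*, higher, and *Myo6* and *Myo18a*, lower, the groups did not overlap, which held for 16.8% of genes.

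The difference between the pools in the genotype value (NK1.1+ minus NK1.1-) was 1.18 ± 0.21 for *Myo1f* and -1.29 ± 0.23 for *Myo6* on the log2 scale (SE). These were the largest in size of the 9 genes, the next being -0.60 ± 0.20 for *Myo18a* and -0.44 ± 0.19 for *Myh9*. *Myo1f* thus differed between genotypes mainly within the NK1.1- pool, and *Myo6* changed sign between the pools. Across all genes, edgeR called 3.44% within the NK1.1- pool, 0.0231% within the NK1.1+ pool and 0.0278% for the difference between pools. No test of the 9 genes is given for these contrasts, which chose them.

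**Figure D4:**
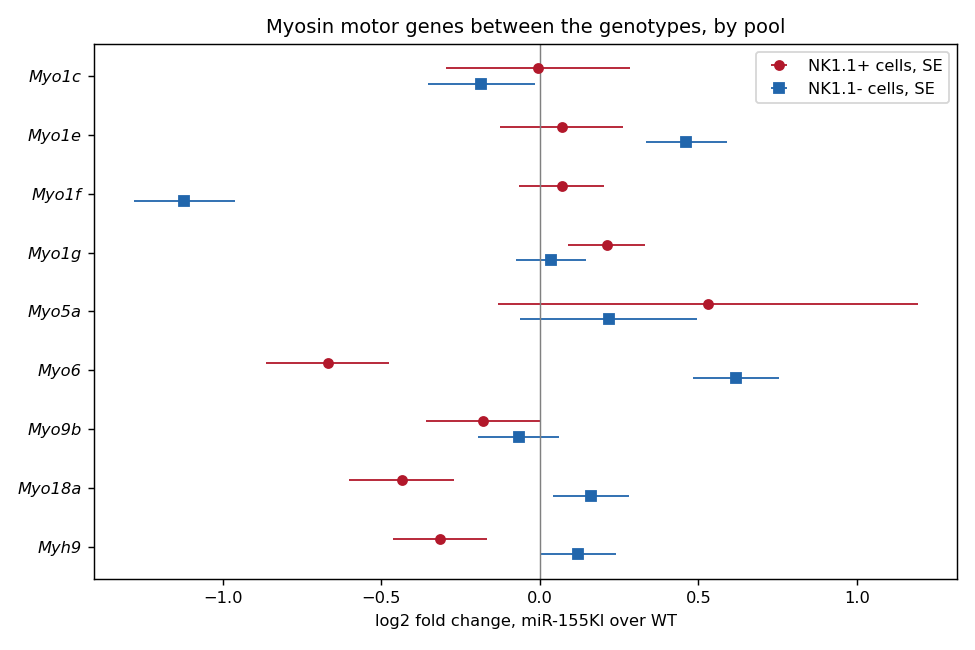
Log2 fold change of miR-155KI over WT (horizontal axis) for the 9 myosin genes in NK1.1+ (circles) and NK1.1- cells (squares), with SE derived from the edgeR fit of each pool (3 libraries per genotype). *Myo1f* lies at -1.12 for NK1.1- and at 0.07 for NK1.1+ cells, and *Myo6* at 0.62 for NK1.1- and -0.67 for NK1.1+ cells.

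The genotype groups also differed in other RNA. Against WT replicate 1 alone, the WT library that matches the miR-155KI libraries in Y-linked and *Xist* RNA, *Myo1f* had a log2 difference of -0.93 for NK1.1- and -0.01 for NK1.1+ cells, and *Myo6* 0.75 for NK1.1- and -0.82 for NK1.1+ cells. These values rest on 1 control library per pool, and the part of the Y-linked and *Xist* difference in the genotype values was not tested. In NK1.1+ cells *Myo18a* had -0.22 against that library in place of -0.44, and *Myh9* had -0.06 in place of -0.31, while *Myo1g* had 0.32 in place of 0.21 and *Myo1e* -0.13 in place of 0.07. In NK1.1- cells *Myo1g* had 0.20 in place of 0.04. A fit of NK1.1+ cells with the ratio of Y-linked to *Xist* RNA as a covariate gave -0.25 for *Myo18a* and -0.06 for *Myh9*. It gave 0.32 for *Myo1g* and -0.09 for *Myo1e*, and the other members moved by less than the spread between replicates. These values too are a description without a test. Myeloid markers were higher in every miR-155KI NK1.1+ library than in any WT NK1.1+ library, and *C1qa* and *C1qc*, complement genes of macrophages, rose there by 4.19 ± 0.52 and 4.30 ± 0.52 (SE, edgeR adjusted p = 0.0286 each). *Myo1f*, *Myo1g*, *Myo1e* and *Myh9* are also used by myeloid cells, and the part of this RNA in their values was not tested. In NK1.1- cells the myeloid sums of the genotypes overlapped.

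*Myo1f* also moved with the markers of *i*NKT1 cells. The 9 *i*NKT1 markers, *Klrb1c* used for the sort among them, all rose in NK1.1+ cells, beside 28.8% of all genes called in either direction. In miR-155KI NK1.1- cells 7 of them fell, beside 3.44% of all genes called. *Tbx21*, the T-bet gene, had -1.23 ± 0.15 and *Cxcr3*, a chemokine receptor, -1.21 ± 0.15 (log2, SE, edgeR adjusted p = 7.76e-04 and 7.43e-04). Summed, the 9 markers lay at 4686, 7405 and 7357 CPM in miR-155KI NK1.1+ cells, 7438, 6441 and 5930 CPM in WT NK1.1+ cells, 819, 1018 and 1033 CPM in miR-155KI NK1.1- cells and 1475, 1762 and 1468 CPM in WT NK1.1- cells. Within each group the library with the lowest *i*NKT1 sum had the lowest *Myo1f*, except in WT NK1.1- cells, where replicates 1 and 3 lay close together in both. Their part in the level of *Myo1f* was not tested. In sorted pools sequenced in bulk, fewer cells of a type and less RNA per cell cannot be told apart.

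For *Myo6* no subset list gave the same order of groups. The 8 *i*NKT2 markers all fell in NK1.1+ cells, beside 28.8% of all genes called in either direction. In miR-155KI NK1.1- cells 4 rose, beside 3.44% of all genes called, and 2 that were not called had negative values, *Gata3* at -0.02 and *Il13* at -0.27. *Il17rb*, a cytokine receptor, rose by 0.89 ± 0.11 and *Pdcd1*, which encodes PD-1, by 0.97 ± 0.10 (SE, edgeR adjusted p = 7.05e-04 and 2.17e-04). Summed, the 8 markers lay at 3277 to 3532 CPM for miR-155KI NK1.1- against 2237 to 2470 CPM in WT NK1.1- cells, the direction of *Myo6*, and at 1442 to 1604 CPM for miR-155KI NK1.1+ against 1177 to 1310 CPM in WT NK1.1+ cells, the opposite direction to *Myo6*. Beside 3.44% of all genes, edgeR called 8 of the 9 *i*NKT17 markers lower in miR-155KI NK1.1- cells. Their sum lay at 39.5 to 67.1 CPM in miR-155KI NK1.1- against 149 to 249 CPM in WT NK1.1- cells, where *Myo6* was higher and *Myo1f* lower in miR-155KI.

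**Figure D5:**
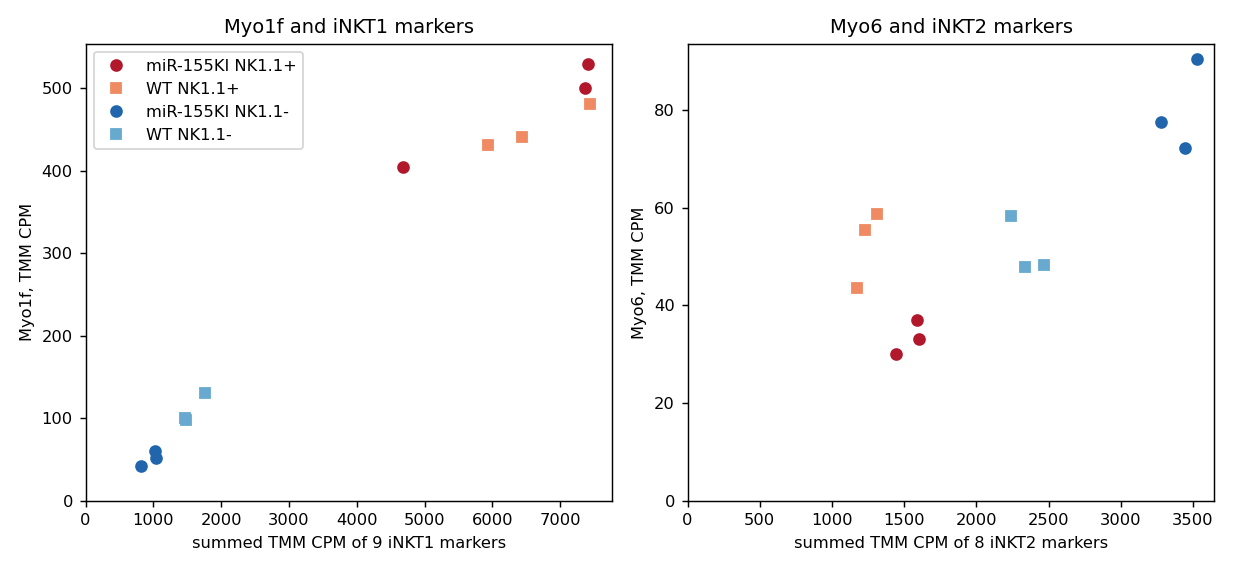
*Myo1f* against the summed level of 9 *i*NKT1 markers (left) and *Myo6* against that of 8 *i*NKT2 markers (right), all axes in TMM CPM from 0. Points are the 12 libraries, circles miR-155KI and squares WT. On the left the libraries lie along one rising band, with miR-155KI NK1.1- at its foot. On the right the miR-155KI NK1.1+ libraries lie to the right of and below WT NK1.1+ libraries.

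The genes whose log2(TMM CPM + 1) followed *Myo1f* most closely over the 12 libraries were *Ifitm10* (Pearson r = 0.996), *Afmid* (r = 0.995) and *Cd7*, a surface molecule of T and NK cells (r = 0.994). *Cd7* averaged 966 CPM in miR-155KI NK1.1+ and 913 CPM in WT NK1.1+ cells, and 106 CPM in miR-155KI NK1.1- and 201 CPM in WT NK1.1- cells. For *Myo6* they were *Eif5a2*, a translation factor gene (r = 0.908), *BC021614* (r = 0.877) and *Plce1*, a phospholipase gene (r = 0.875). None of the genes searched thus followed *Myo6* as closely as *Cd7* followed *Myo1f*. *Plce1* averaged 3.71 CPM in miR-155KI NK1.1+ and 6.72 CPM in WT NK1.1+ cells, and 13.8 CPM in miR-155KI NK1.1- and 7.74 CPM in WT NK1.1- cells. Among the members, *Myo1e* and *Myo1f* had r = -0.976, *Myo1f* and *Myo9b* r = 0.847 and *Myo18a* and *Myh9* r = 0.754. These coefficients are descriptions over 12 libraries that share 2 pools and 2 genotypes, which were searched over 8911 genes.

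Other genes of the motor machinery were taken from 5 lists: 29 other myosin heavy chains, 15 light chains and calmodulins, 22 regulators, 23 adaptors and cargo proteins and 25 actin cytoskeleton genes. Of 85 tested genes of these lists, edgeR called 16 higher and 8 lower in NK1.1+ cells, beside 28.8% of all genes tested, so nothing particular to the lists is read from this count or from those of the single lists below. Among 14 tested other heavy chains, *Myo9a*, the relative of *Myo9b*, rose by 0.97 ± 0.28 (adjusted p = 0.0147) and *Myo3b* by 2.66 ± 0.56 (adjusted p = 0.00172), while *Myo10*, a myosin of filopodia, fell by 1.90 ± 0.41 (adjusted p = 0.00203) and *Myo1d* by 1.98 ± 0.51 (adjusted p = 0.0078). *Myo3b*, *Myo10* and *Myo1d* lay below 8 CPM in all libraries. The median log2 difference of the 14 was -0.05, against 0.04 over all genes.

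Myosin light chains bind the neck of the heavy chain and stiffen it. Of 10 tested light chain and calmodulin genes, only *Calm3*, one of the calmodulin genes whose product serves as light chain of class I and V myosins, passed, and it fell by 0.56 ± 0.10 (SE, edgeR adjusted p = 5.76e-04). Of 18 regulators, 4 rose and 1 fell, beside the same 28.8% of all genes, and those that rose included *Ppp1r12a*, the targeting subunit of myosin phosphatase, by 0.77 ± 0.10 (adjusted p = 3.49e-05) and *Stk17b*, a kinase of the death-associated family, by 0.68 ± 0.13 (adjusted p = 9.54e-04). Of 19 adaptors, 5 rose and 3 fell. *Sytl2*, a Rab27 effector of secretory granules, rose by 1.64 ± 0.15 (adjusted p = 5.40e-07) and *Tax1bp1*, a partner of *Myo6* in autophagy, by 0.36 ± 0.09 (adjusted p = 0.00599). *Dynll1*, a light chain of dynein, fell by 0.50 ± 0.09 (adjusted p = 4.85e-04), and the related *Dynll2* was not called, at -0.19 ± 0.21. Of 24 actin genes, 5 rose and 1 fell, with *Dock2*, the Rac activator of lymphocytes, up by 0.73 ± 0.08 (adjusted p = 6.76e-06) and *Flna*, filamin A, down by 0.73 ± 0.10 (adjusted p = 3.60e-05). The medians of these lists lay between -0.0034 and 0.22 on the log2 scale.

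Between the genotypes, of 79 tested genes of the 5 lists edgeR called 1 in NK1.1- cells, beside 3.44% of all genes. It was *Exph5*, a Rab27 effector, which rose by 1.40 ± 0.29 (SE, adjusted p = 0.0202) and is named after its values were seen. It had 8.60, 6.54 and 10.2 CPM in the miR-155KI NK1.1- libraries, against 2.58, 3.43 and 3.40 CPM in WT NK1.1- cells. In NK1.1+ cells edgeR called 0 of 80, beside 0.0231% of all genes. Of the 80, 8 had an unadjusted p under 0.05 by edgeR, beside 1539 of all 12991 genes tested, so nothing is read from that count. DESeq2 called 1 gene of the lists and limma-voom 0.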

How the data were processed

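Raw counts per gene, as whole numbers, and a CPM table, a normalized signal in which each value is the count times 1 factor per library, were deposited by the authors. Reads were demultiplexed with bcl2fastq 2.17.1.14 and placed on GRCm38 (mm10) according to the submitters' notes, and aligner and counter are not given in the sources used here. In the methods a TruSeq kit and pooled replicates are stated, in the labels a SMART-Seq v4 kit and 3 libraries per group, which were used as separate samples.

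The main fits used edgeR 4.0.16 in R 4.3.3 (TMM, default low-count filter, robust quasi-likelihood test) with a Benjamini-Hochberg threshold of 0.05 over all genes tested, and alternatives used limma 3.58.1 and DESeq2 1.42.0. The pool contrast used all 12 libraries, and each genotype contrast 1 pool. The fits were tested on simulated data. Depth was 12819476 to 20518257 counts per library. The members and gene lists were chosen with earlier results of these data known. Named are all members, up to 4 genes per list, the 3 genes most like *Myo1f* and *Myo6*, and *Mir155hg* and *Klrb1c*. From a list, the called genes with the highest mean CPM could be named for the pools, and those with the smallest p and a mean of at least 10 CPM for the genotypes. Names turned into dates (27, 0.249% of counts) stayed in the table. Figures were drawn with matplotlib 3.10.9.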

Additional observations from a re-analysis of the deposited data

Results flagged for a closer look

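*Myo6* was set aside for a closer look because its genotype difference had opposite directions in the pools: every miR-155KI NK1.1+ library lay below every WT NK1.1+ library, and every miR-155KI NK1.1- library lay above every WT NK1.1- library. The difference between the pools was -1.29 on the log2 scale (NK1.1+ minus NK1.1-), and it lay between -1.42 and -1.17 over 21 other settings of the fit. *Myo6* was chosen by this pattern, so the value is a description and no p is given for it.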

How the results depend on the processing

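The pool comparison was recomputed under 23 other settings. None of the 9 myosins passed in the other direction, and *Myo1f* and *Myo1e* passed in all 23. In miR-155KI libraries alone, a fit on fewer libraries, 3 of the 9 myosins and 1821 genes were called, against 5 and 4145. A pool difference within 1 genotype holds part of the contrast that chose *Myo1f* and *Myo6*. Whether these genes passed in such a fit is therefore a description and not a test. Leaving out 1 library gave 4 to 7 called myosins and 3340 to 4588 called genes. *Myo1g* did not pass with no filter (log2 0.28), with limma on log2(CPM + 1) (0.19) or in either genotype alone (0.35 in miR-155KI, 0.15 in WT), *Myo9b* did not in miR-155KI alone (0.59) and *Myo6* did not in WT alone. Of the other named motor genes, *Myo9a* and *Tax1bp1* lost their call in each genotype alone, *Myo10* and *Dynll1* in miR-155KI alone and *Myo1d* in WT alone, and *Myo3b*, *Calm3*, *Ppp1r12a*, *Stk17b*, *Sytl2*, *Dock2* and *Flna* kept theirs wherever they were fitted.

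Over all genes, 457 were called between genotypes in NK1.1- cells, against 962 with DESeq2, 1048 with no filter, 139 with all 12 libraries in 1 fit and 114 after adjusting for the ratio of Y-linked to *Xist* RNA. Leaving out 1 library gave 186 to 917, with 917, 208 and 249 without WT replicate 1, 2 and 3 and 186 and 270 without miR-155KI replicate 1 and 3. In NK1.1+ cells 3 were called, against 241 with DESeq2, 282 with no filter, 1 with limma-voom or that ratio, 5 and 6 with limma on log2(CPM + 1) and log2(CPM + 0.1) and 60 with all 12 libraries in 1 fit. Leaving out 1 library gave 1 to 125, with 125, 1 and 1 without WT replicate 1, 2 and 3 and 5 without miR-155KI replicate 2. The cause was not tested. The genotype value of *Myo1f* in NK1.1- cells stayed between -1.26 and -0.91, and that of *Myo6* between 0.51 and 0.75 within the NK1.1- pool and between -0.82 and -0.58 within the NK1.1+ pool.

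With the replicate number as a block, 5 myosins and 4458 genes were called between the pools, 737 genes between genotypes within the NK1.1- pool and 7 within the NK1.1+ pool. The labels do not say what a number marks. Deviations of same-numbered libraries from their group means had r = 0.134, 0.0915 and 0.0704 between the miR-155KI pools. Between the WT pools r was 0.374, 0.267 and 0.161. Not every pair passed 0.1, although each NK1.1+ library correlated best with its own number in the other pool. Same-numbered WT libraries of the pools were also alike in Y-linked and *Xist* RNA. The main pool fit did not use the number. Depth limits the values of low genes such as *Myo5a*.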
